A study of Mus musculus with 20 samples.

Results

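Igfn1 encodes a protein of immunoglobulin-like and fibronectin type III domains that lies at the Z-disc of striated muscle. It was examined together with the genes of 5 Z-disc proteins it is known to work with: Ky, Flnc, Actn2, Actn3 and Myoz1. The members were the probes that carry these gene names on a one-colour mouse expression array: 11 probes for 6 genes, of 41174 probes and 27376 gene names in all. Igfn1 was selected on its measured difference between vector legs, the same values that the vector comparisons below use, so that difference is given as a description with no test. The partners were chosen for their known roles, with results of these arrays already known. After the filter on dim and marked spots, 9 of the 11 probes and 6 of the 6 genes remained, against 23609 probes and 15725 genes of the whole array. Igfn1, selected on these values, was higher in the right leg of all 10 animals. Of its 5 partners 0 passed the test in any comparison, where 0% to 1.28% of all tested genes did. Among the partners, Actn3 and Myoz1 lay at or near the scanner ceiling, so a difference in them could hardly be seen. Some Actn2 spots also came near the ceiling.

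The arrays measured RNA of the extensor digitorum longus (EDL), a fast muscle of the hindlimb, from male C57Bl6 mice injected at 8 weeks of age. An adeno-associated virus vector of serotype 6 (rAAV6) was given into the hindlimb muscles of both legs in 30 µL, and animals received Scriptaid, a hydroxamate inhibitor of histone deacetylases, or vehicle (5% DMSO in PBS) by intraperitoneal injection 4 weeks later. HS legs carried the 2 vectors for mutant HDAC4 (D832N) and HDAC5 (D861N), called dnHDAC4/5 here, at 2.5e+10 vector genomes each, in animals given Scriptaid. ES legs carried the empty vector in animals given Scriptaid, HV legs carried dnHDAC4/5 in animals given vehicle, and EV legs carried the empty vector in animals given vehicle. The empty vector is listed at 2.5e+10 vector genomes, and whether both legs received the same total was not settled. Each group holds 5 arrays, and the right leg with dnHDAC4/5 and the left leg with the empty vector came from the same animal. The side of the leg and the vector cannot be told apart. Both legs of every animal had thus received rAAV6, and no uninjected muscle was measured. The vector was given into the whole anterior and posterior compartments, the share of fibres that took it up is not stated in the labels, and neither are the dose of Scriptaid and the time to collection. The titles of the ES samples say vehicle, while their description, their second treatment and the identifiers that pair them with HS legs name Scriptaid, and these were followed.

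Values are log2 processed intensities minus the 75th percentile of the array, so 0 is the level that 75% of the spots lie below. The 75th percentile itself was 248 to 608 intensity units, and the share of spots well above background ranged from 51.7% to 61.3%. A slide held 1 array of each group, with each group always in 1 position, so an effect of position cannot be told apart from one of group. Spots near the edge were dim on HS arrays: 1.72% to 2.88% of them fell short of the other arrays' median by over 3 log2 units, compared with 0.0299% to 0.568% on the ES, HV and EV arrays. None of the 6 probes that stand for the members lies in that zone. Array EV 5 had more such spots inside the array (0.921%) than the other 19 (0.00273% to 0.245%). Of the 10 genes listed as a check of the tissue, 9 passed the filter, and 0 of these were called in any comparison, against 0% to 1.28% of all tested genes. The sums of 11 marker lists (fast and slow fibre, smooth muscle, endothelium, fibroblast, tendon, macrophage, adipocyte, Schwann cell, satellite cell and red blood cell) overlapped between HS and ES, HV and EV, HS and HV, and ES and EV, over the 79 of 87 markers that were tested. The satellite cell marker Myf5 was above background on at most 2 of 20 arrays. Single markers were called all the same. The tendon marker Scx, a transcription factor of tendon cells, was called higher for HS minus ES (1.57, limma adjusted p = 0.0315) and for the averaged vector (1.34, 0.0128). With edge spots left out the second call held (0.0264) and the first did not (0.200). The tendon list did not move as 1: for HS minus ES 3 of 6 markers had higher and 3 lower values (median 0.04). For the averaged vector 4 had higher and 2 lower values (median 0.19). Of 6 tendon markers, 6 had lower values under Scriptaid in both kinds of leg, with a median of -1.503 for HS minus HV and -1.09 for ES minus EV, and 0 were called. Of 7 adipocyte markers, 7 had higher values for HS minus ES (median 1.94) and 6 had lower values for HV minus EV (median -0.45), with 0 called. Myh3, the embryonic myosin heavy chain, was called higher for HS minus HV (1.09, adjusted p = 0.0442), a call lost with edge spots left out (0.282). Casq1, Cdh5 and Sox10, markers of fast fibre, endothelium and Schwann cell, were called lower for HS minus ES, at -10.03, -3.97 and -1.52, on probes that lie in the edge zone. In that comparison 6 of 8 fast-fibre, 2 of 8 endothelium and 4 of 8 Schwann cell markers had higher values, with medians of 0.08, -0.14 and -0.01. For the averaged vector 1 marker of each of these lists was called lower. For HS minus HV and for the interaction 1 fast-fibre and 1 endothelium marker were called lower. Slow-fibre genes summed to 25.3 to 232 in HS legs and 124 to 182 in ES legs, and to 16.0 to 206 in HV legs and 127 to 235 in EV legs, in units of the array's 75th percentile. Of 9 slow-fibre genes, 8 had lower values for HV minus EV (median -1.03) and 8 had higher values for HS minus ES (median 0.19). Their median for the interaction was 1.47, and 0 were called in any comparison. The part of these markers in the results below was not tested. Hdac4 and Hdac5 themselves differed by log2 0.29 ± 0.16 and -0.01 ± 0.11 (SE) between legs (limma adjusted p = 0.525 and 0.989), on probes whose match to the vector's transcript is not given in the sources used here.

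The Z-disc is the plate that bounds each sarcomere and holds the thin filaments of neighbouring sarcomeres together. Its α-actinins cross-link the actin filaments, and other proteins dock on α-actinin, among them filamin C, which also reaches the membrane, and the calsarcins, which hold the phosphatase calcineurin there. Igfn1 was found through its binding to the kyphoscoliosis peptidase Ky, whose loss in the ky mouse causes degeneration of postural muscle and a bent spine. Class IIa histone deacetylases, HDAC4 and HDAC5 among them, restrain transcription by MEF2 factors in muscle, and their nuclear export follows calcium signals during contraction.

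The probes read short stretches of these transcripts, and the following sequences, as the scanner files give them, show what was measured for Igfn1, for the probe that stands for each of Ky, Actn2, Actn3 and Myoz1, and for 2 of the 4 Flnc probes. The other 2 Flnc probes, A_52_P61735, which stands for the gene below, and A_51_P185664, are not printed, since whether they lie in the coding part of the transcript was not settled. Capitals mark the stretch where the Actn2 and Actn3 probes align best without gaps.
Igfn1, A_51_P250337: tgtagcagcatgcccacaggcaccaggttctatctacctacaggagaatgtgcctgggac
Ky, A_52_P561272: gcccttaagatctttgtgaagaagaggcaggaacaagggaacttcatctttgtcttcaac
Flnc, A_51_P349844: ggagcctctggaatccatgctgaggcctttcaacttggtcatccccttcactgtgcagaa
Flnc, A_51_P205907: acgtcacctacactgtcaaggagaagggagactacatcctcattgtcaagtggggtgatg
Actn2, A_51_P108266: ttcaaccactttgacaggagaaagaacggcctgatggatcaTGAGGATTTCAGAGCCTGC
Actn3, A_52_P656699: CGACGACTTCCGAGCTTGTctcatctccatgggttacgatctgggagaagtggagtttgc
Myoz1, A_52_P305767: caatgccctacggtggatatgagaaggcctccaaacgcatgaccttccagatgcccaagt

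The Igfn1 probe lies on chromosome 1, and its 60 bases are spread over 900 bases of the genome in the scanner files' coordinates, so it reads across a gap as a spliced transcript would. The Actn2 probe on chromosome 13 spans 2373 bases and the Actn3 probe on chromosome 19 spans 486 bases in the same way. The Ky probe lies on chromosome 9, the Flnc probes on chromosome 6 and the Myoz1 probes on chromosome 14, each without a gap. The end of the Actn2 probe and the start of the Actn3 probe align over 19 bases, of which 13 (68.4%) are identical. The files do not name the genome build of these coordinates. In GRCm38.p6, RefSeq places the Igfn1 gene at chr1:135953205-136040925.

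Igfn1 was higher in every right leg than in the left leg of the same animal. In HS legs the level was 0.23, 0.36, 0.08, 2.18 and 1.64 for replicates 1 to 5, against -1.64, -2.51, -1.88, -2.58 and -1.77 in ES legs. In HV legs it was 1.98, 2.44, -0.31, 1.74 and -0.76, against -2.33, -1.88, -1.62, -1.68 and -1.89 in EV legs. The lowest dnHDAC4/5 leg, HV 5, thus lay above the highest empty-vector leg, EV 3, and the groups did not overlap in either kind of animal. Groups without overlap were found for 3.45% of all tested genes between HS and ES and for 0.642% between HV and EV, and nothing is read from this for Igfn1, which was chosen on these values. In whole muscle, more cells with a transcript and more of it per cell cannot be told apart. The Igfn1 probe was well above background on 20 of 20 arrays and not saturated on any.

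The right leg exceeded the left by log2 2.94 ± 1.31 over the 10 animals (mean and SD), which corresponds to a 7.66-fold higher level. The single animals ran from log2 1.13, or 2.19-fold, to 4.76, or 27.1-fold. In animals given Scriptaid the difference was 2.98 ± 1.19 and in animals given vehicle 2.90 ± 1.57 (SD, n = 5 each). The fitted differences were 2.98 ± 0.54 for HS minus ES and 2.90 ± 0.54 for HV minus EV (SE). The right legs spread far more than the left: the SD was 0.95 in HS and 0.44 in ES, and 1.44 in HV and 0.28 in EV. In HV legs the values fell apart into 3 between 1.74 and 2.44 and 2, HV 3 and HV 5, below 0, and in HS legs HS 4 and HS 5 lay above the other 3. Without HV 5, the HV minus EV difference was 3.34.

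**Figure D1:**
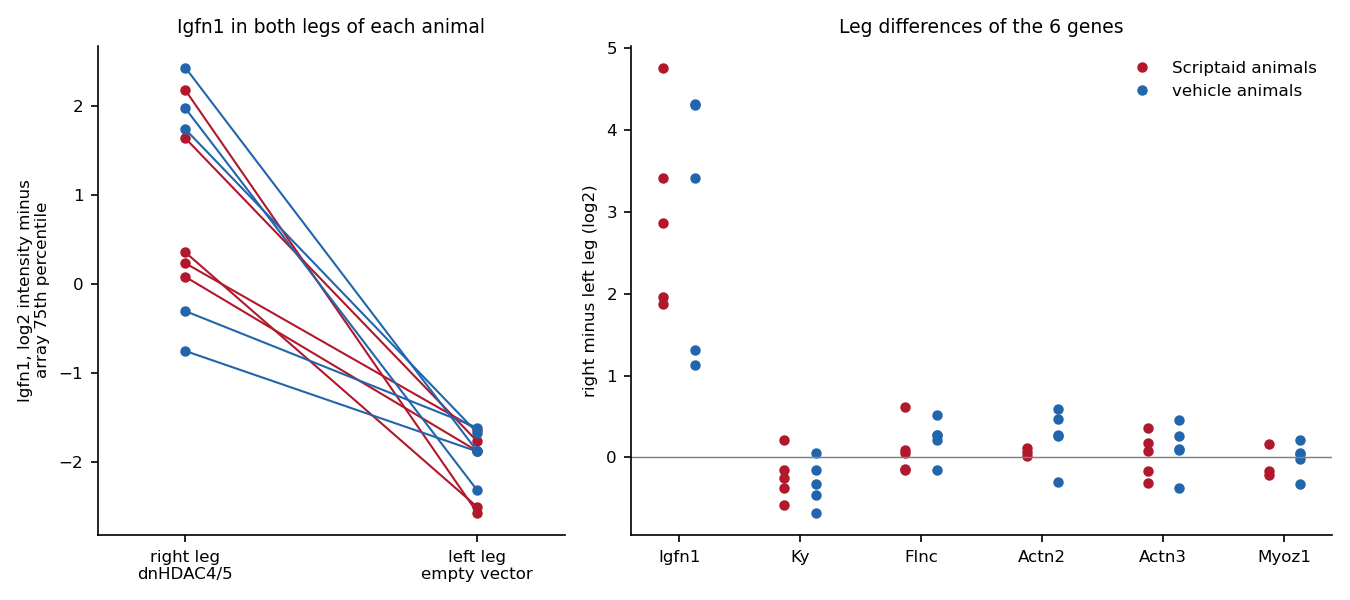
Left, the Igfn1 level (log2 intensity minus the array's 75th percentile) in the right leg (dnHDAC4/5) and left leg (empty vector) of each of the 10 animals, red for Scriptaid and blue for vehicle. Right, the right-minus-left difference of each of the 6 genes by animal: the Igfn1 differences run from 1.13 to 4.76, while those of the other 5 genes lie between -0.68 and 0.61. Igfn1 was chosen on these differences, and Actn3 and Myoz1 lay at or near the scanner ceiling.

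Scriptaid was not accompanied by a detectable difference in Igfn1. In dnHDAC4/5 legs Igfn1 averaged 0.90 ± 0.95 in HS and 1.02 ± 1.44 in HV (SD, n = 5 each), a fitted difference of -0.12 ± 0.54 (SE, adjusted p = 0.976, limma with Benjamini-Hochberg adjustment over 15725 genes). In empty-vector legs it averaged -2.08 ± 0.44 in ES and -1.88 ± 0.28 in EV, a difference of -0.20 ± 0.54 (adjusted p = 1.00). The vector difference in Scriptaid animals minus that in vehicle animals was 0.08 ± 0.76 (adjusted p = 1.00). These errors are large beside the left-leg spread, because limma pools the spread of all 4 groups. The 95% intervals of the Scriptaid differences ran from -1.24 to 1.00 for HS minus HV and from -1.32 to 0.92 for ES minus EV. The values of HS and HV, and those of ES and EV, overlapped, while groups without overlap were found for 2.37% and 1.02% of all tested genes.

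Against these comparisons stand the partners. With an adjusted p under 0.05, limma called 1.24% of all tested genes for HS minus ES, 0% for HV minus EV, 1.09% for the vector averaged over both injections, 1.28% for HS minus HV, 0% for ES minus EV and 0.178% for the interaction. With edge spots left out, limma called 0 genes in place of 195 for HS minus ES, 32 in place of 172 for the averaged vector, 1 in place of 202 for HS minus HV and 0 in place of 28 for the interaction. Of the 5 partners, of which Actn3 and Myoz1 lay at or near the scanner ceiling, 0 were called in each of the 6 comparisons, and Igfn1 was not called in the 3 that were tested for it. At an unadjusted p under 0.05, 730 genes stood out for HV minus EV and 602 for ES minus EV, where none passed the adjustment. With so low a share called, 0 of 5 is near what the background gives.

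**Figure D2:**
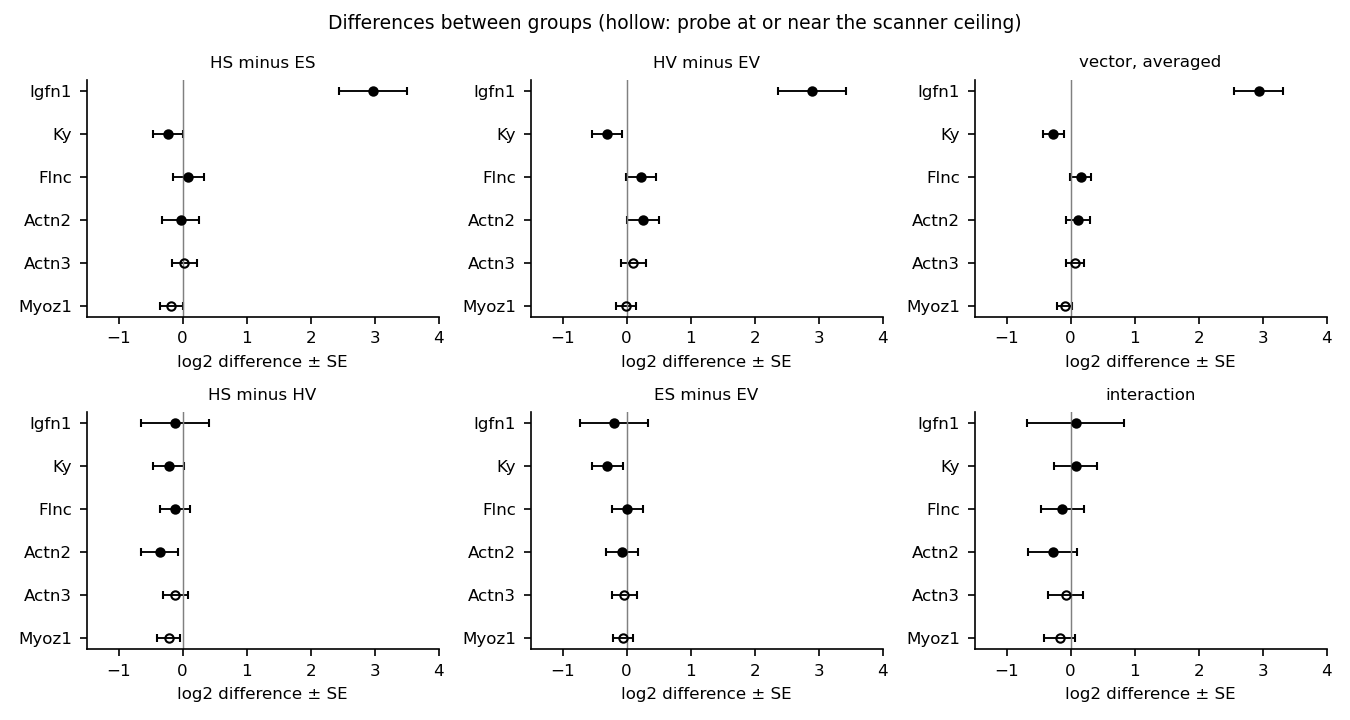
Fitted log2 differences with their standard errors for the 6 genes in 6 comparisons, from 4 groups of 5 arrays. Igfn1 stands near 3 in the 3 vector panels, where it was selected and has no test, and every other point lies between -0.36 and 0.26. Hollow points are Actn3 and Myoz1, at or near the scanner ceiling, whose differences carry no fold.

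Ky, the peptidase that binds Igfn1, had the lower value in the right leg of 8 of 10 animals, but the difference did not pass the test. It measured -3.36, -3.26, -2.50, -2.56 and -2.80 in HS legs, against -2.99, -2.68, -2.71, -2.31 and -2.65 in ES legs. In HV legs it measured -3.07, -3.22, -2.23, -2.81 and -2.07, against -2.75, -2.76, -2.08, -2.13 and -2.12 in EV legs. The groups overlapped in both kinds of animal, and the 2 animals with a higher right leg were replicate 3 of Scriptaid and replicate 5 of vehicle. The vector difference averaged over both injections was -0.27 ± 0.17 (SE, limma adjusted p = 0.572). Its parts were -0.23 ± 0.24 for HS minus ES and -0.31 ± 0.24 for HV minus EV (adjusted p = 0.807 and 1.00). With the animal as a block, which removes what both legs of an animal share, the adjusted p of the averaged difference was 0.162. Scriptaid differences of Ky were -0.22 ± 0.24 for HS minus HV and -0.30 ± 0.24 for ES minus EV (adjusted p = 0.830 and 1.00). A second Ky probe, A_51_P334190, was above background on 1 of 20 arrays (1 HS array) and did not enter the fit.

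Flnc, which cross-links actin and joins the Z-disc to the membrane, is read by 4 probes, of which A_52_P61735 had the highest mean and stands for the gene. On it Flnc measured 4.78, 4.18, 5.16, 4.60 and 5.44 in HS legs, against 4.73, 4.34, 5.30, 4.51 and 4.83 in ES legs. HV legs measured 5.31, 4.63, 5.17, 4.45 and 5.20, against 4.79, 4.78, 4.90, 4.24 and 4.93 in EV legs. The groups overlapped throughout, and the right leg was higher in 7 of 10 animals. The averaged vector difference was 0.16 ± 0.17 (SE, limma adjusted p = 0.789). Scriptaid differences were -0.12 ± 0.24 for HS minus HV and 0.01 ± 0.24 for ES minus EV (adjusted p = 0.926 and 1.00).

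The Flnc probes did not all read alike. Fitted one by one over all 23609 probes, limma called 1.29% of probes for HS minus ES, 0% for HV minus EV, 1.22% for the averaged vector, 1.34% for HS minus HV, 0% for ES minus EV and 0.208% for the interaction, and 0 of the 4 Flnc probes in each. Probe A_51_P185664 had higher mean values under Scriptaid: -1.71 ± 0.80 in HS and -2.64 ± 0.47 in HV, and -2.05 ± 0.51 in ES and -2.80 ± 0.66 in EV (SD, n = 5 each). The differences were 0.92 ± 0.37 for HS minus HV and 0.76 ± 0.37 for ES minus EV (SE, limma adjusted p = 0.339 and 1.00), and the groups overlapped. The probe was not above background on EV 4. With normexp background correction the differences were 0.54 for HS minus HV and -0.24 for ES minus EV, so the second changed sign. The scanner files give this probe a transcript of its own, 22891 bases before the last Flnc probe, whereas the other 3 probes share 1 RefSeq transcript. Probes A_51_P205907 and A_51_P349844, 524 and 8408 bases before the last one, gave -0.10 ± 0.25 and -0.33 ± 0.72 for HS minus HV. For ES minus EV they gave 0.10 ± 0.22 and 0.91 ± 0.72, and the second of these rests on EV 5, where A_51_P349844 read -6.18 and was not above background, against -1.62 to -0.53 on the other 4 EV arrays. The fit of A_51_P205907 uses 3 HS, 4 ES, 4 HV and 5 EV arrays, since the scanner software marked the other spots.

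**Figure D3:**
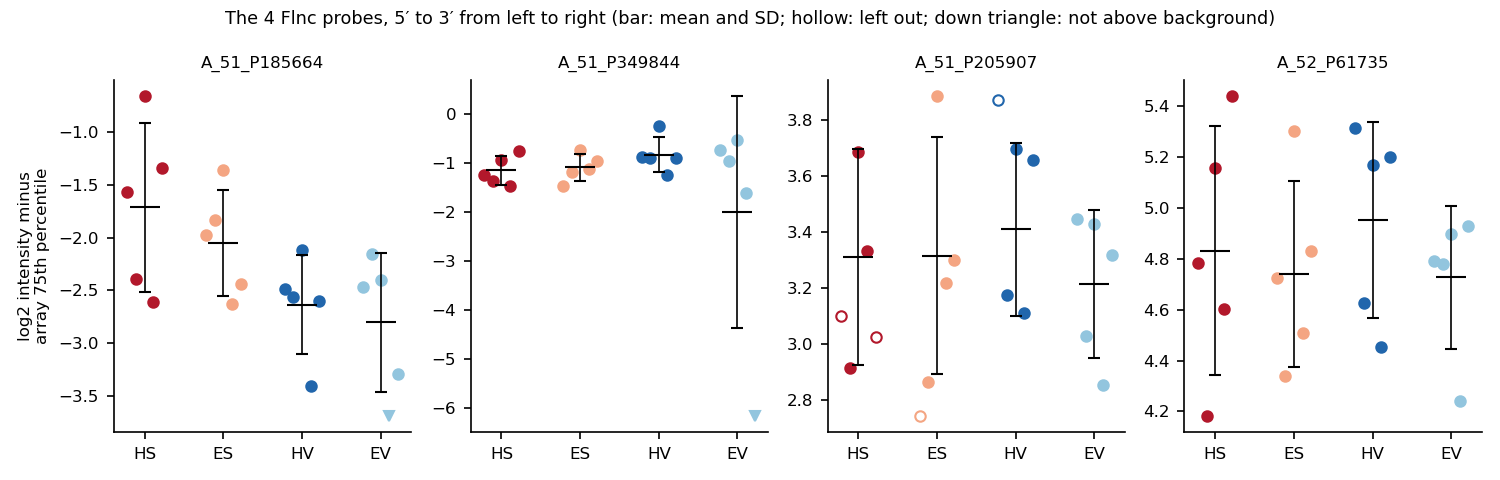
The 4 Flnc probes on each of the 20 arrays, ordered from the 5′ to the 3′ end of the gene, in log2 intensity minus the array's 75th percentile, with the mean and SD of each group. The leftmost probe has its highest group means in HS and ES (-1.71 and -2.05), a pattern the other 3 probes lack, and the single low point of the next probe is EV 5 at -6.18.

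Actn2, the α-actinin of all striated fibres, measured 5.86, 6.32 and 6.87 on HS 2, HS 4 and HS 5, where HS 1 and HS 3 were left out as marked spots, against 6.52, 5.84, 6.53, 6.25 and 6.75 in ES legs. HV legs measured 7.14, 6.44, 6.73, 6.25 and 6.98, against 6.56, 5.98, 7.04, 5.99 and 6.71 in EV legs. The right leg was higher in 7 of the 8 animals with both legs measured, the exception being vehicle replicate 3, and the groups overlapped. The averaged vector difference was 0.11 ± 0.19 (SE, limma adjusted p = 0.879), from 0.26 ± 0.25 for HV minus EV and -0.03 ± 0.29 for HS minus ES. The last value has the opposite sign to its 3 paired legs (0.02, 0.07 and 0.12), because the ES arrays whose HS partner was left out stay in the fit. Scriptaid differences were -0.36 ± 0.29 for HS minus HV and -0.08 ± 0.25 for ES minus EV (adjusted p = 0.729 and 1.00). One HS spot, among those left out, and 1 ES spot were saturated. The saturated HS 3 spot read 48642 intensity units, below the unsaturated spots of HV 3 (53131) and EV 3 (50094). Some Actn2 values thus lay near the scanner ceiling, and how far this compresses its differences was not tested.

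Actn3, the α-actinin of fast fibres, was saturated on 20 of 20 arrays, so its spots give a floor and no fold. Its recorded values were 7.72, 7.17, 6.68, 6.69 and 7.31 in HS legs and 7.36, 7.33, 6.60, 7.002 and 7.13 in ES legs. They were 7.44, 7.12, 6.88, 7.36 and 7.34 in HV legs and 6.98, 6.86, 7.25, 7.26 and 7.25 in EV legs. Each is a spot at the scanner ceiling minus the 75th percentile of its array, so an order between groups cannot be read from them.

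Myoz1, the calsarcin of fast fibres that binds α-actinin, filamin C and calcineurin, was also near the ceiling. Probe A_52_P305767 was saturated on 5 of 5 ES and 5 of 5 EV arrays, on 2 HS arrays and on 2 HV arrays. It measured 7.18, 6.83 and 6.84 on HS 2, HS 3 and HS 4, with HS 1 and HS 5 left out, against 7.42, 7.35, 6.67, 7.05 and 7.16 in ES legs. In HV legs it measured 7.21, 6.94, 6.95, 7.34 and 7.40, against 6.998, 6.90, 7.28, 7.35 and 7.35 in EV legs. With the empty-vector legs at the ceiling, the vector comparisons and ES minus EV give no fold. No difference is read between HS and HV either, since 2 of the 3 HS spots kept and 2 of the 5 HV spots were saturated. The second probe, A_51_P379750, kept 2 of 5 HS spots after marked spots were left out and was not fitted. It lies in the edge zone and was saturated on 5 ES, 5 EV, 4 HV and 1 HS arrays. Its recorded value was higher in the right leg of 5 of 5 animals with both legs kept (0.28 to 0.45). On the first probe the right leg was higher in 4 of 8. With left legs at the ceiling, no fold is read from the second probe either.

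**Figure D4:**
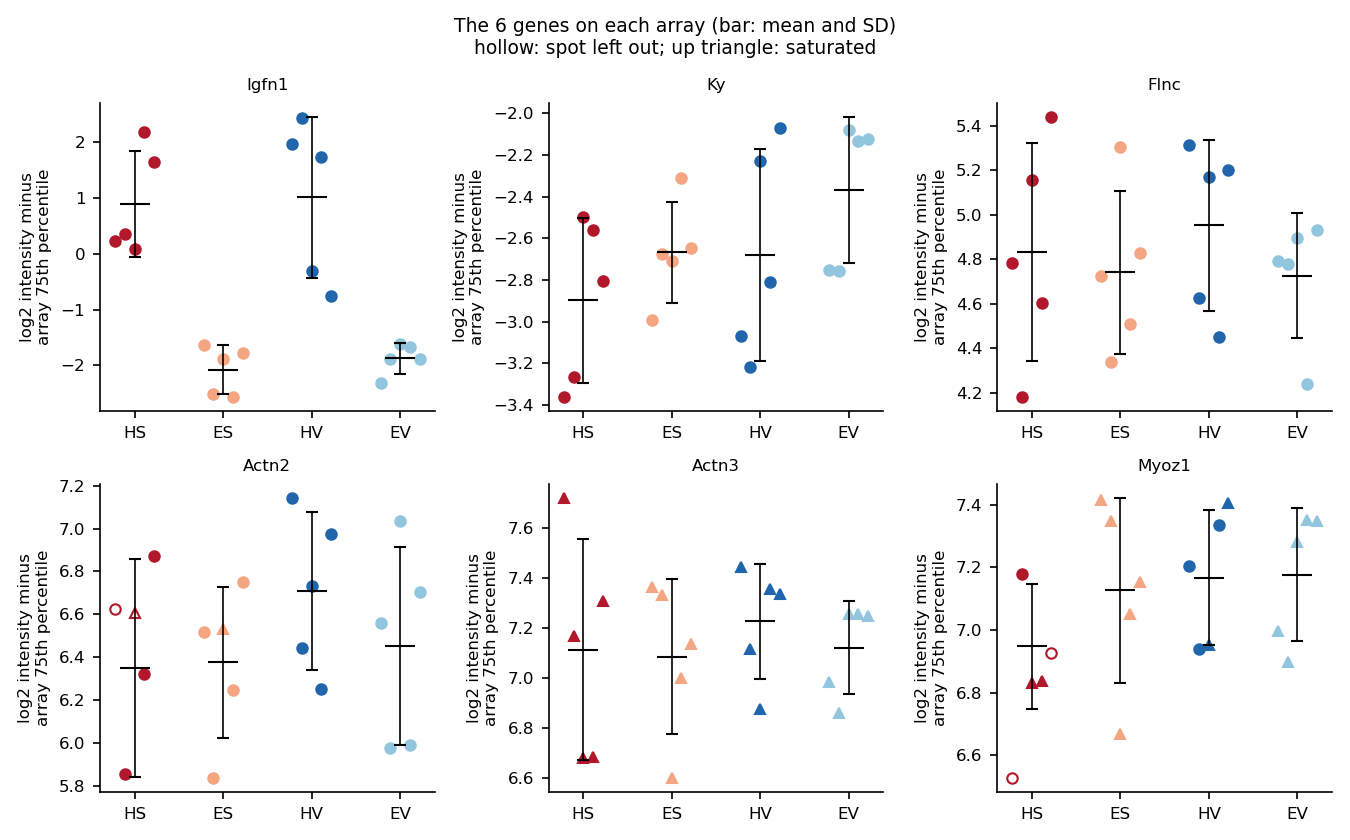
The 6 genes on each of the 20 arrays in groups HS, ES, HV and EV, in log2 intensity minus the array's 75th percentile, with the mean and SD of the spots kept. Igfn1, which was chosen on these values, is the 1 gene of the 6 whose HS and HV values all lie above those of ES and EV. Groups without overlap were found for 3.45% of all tested genes between HS and ES and for 0.642% between HV and EV. Actn3 and most Myoz1 spots are triangles, which mark saturation.

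The other proteins that share a place with these 6 were read from lists chosen with earlier results of these arrays known. Of 24 measured genes of other Z-disc proteins, 1 was called for the averaged vector, against 1.09% of all tested genes. In each of the other 5 comparisons 0 were called, against 0% to 1.28% of all tested genes. The median difference of the 24 was 0.01, against 0.02 over all genes. The gene called was Sorbs2, an adaptor with SH3 domains at the Z-disc and other actin structures, which was lower in right legs. It measured -0.72, -0.34, 0.02, -0.88 and -0.79 in HS legs, against 0.82, 0.96, 0.17, -0.05 and 0.74 in ES legs. In HV legs it measured -0.76, -0.79, -0.13, -0.35 and 0.39, against -0.13, 0.69, 0.05, 1.12 and 0.19 in EV legs. The right leg was lower in 9 of 10 animals, HV 5 being the exception, and the values overlapped both between HS and ES and between HV and EV. The averaged difference was -0.89 ± 0.20 (SE, limma adjusted p = 0.0326). That call was lost with edge spots left out (adjusted p = 0.0557), with the animal as a block (0.0525), with no filter on dim probes (0.0687) and when any 1 of 11 of the 20 arrays was left out, up to 0.0726, while the difference kept its size.

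Of 10 genes for the protection and turnover of filamin C, 10 were measured and 0 were called in each comparison, against 0% to 1.28% of all tested genes. Their median for the averaged vector was 0.22, against 0.02 over all genes. The smallest p was that of Hspb8, a small heat shock protein that works with Bag3 in clearing damaged filamin. It measured 5.84, 5.65, 5.86 and 6.52 in HS 1 to HS 4, with HS 5 left out, against 5.51, 5.58, 5.50, 5.61 and 5.65 in ES legs. HV legs measured 6.28, 6.24, 5.85, 6.37 and 5.90, against 5.30, 5.65, 5.69, 5.78 and 5.85 in EV legs. The right leg was higher in 9 of the 9 animals with both legs measured. The averaged difference was 0.43 ± 0.11 (SE, limma adjusted p = 0.0723). It passed with the slide as a block (0.0430) and without HV 5 or HS 2, and ranged up to 0.159 over the alternatives. Hspb7, a muscle heat shock protein that binds filamin C, had a difference of 0.65 ± 0.32 (adjusted p = 0.445).

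Of 14 measured genes of the list of immunoglobulin and fibronectin domain proteins of the sarcomere, the structural relatives of Igfn1, 0 were called in each comparison. The share over all tested genes was 0% to 1.28%. The median of the 14 for the averaged vector was -0.16. The 2 of smallest p for that comparison are named, so their counts of legs follow from the choice and are a description. Mybpc1, the slow-type myosin-binding protein C, had the lower value in the right leg of 10 of 10 animals: 5.42 ± 0.34 in HS and 5.87 ± 0.14 in ES, and 5.34 ± 0.53 in HV and 5.95 ± 0.15 in EV (SD, n = 5 each). Its averaged difference was -0.53 ± 0.15 (SE, limma adjusted p = 0.0853). It passed in 2 of 20 fits with 1 array left out, those without HV 5 or HS 3. Of 11 other alternatives it passed in 1, with the slide as a block (0.0438), and the adjusted p ranged up to 0.480. Obsl1, an obscurin-like protein that ties titin to the M-band, had a difference of -0.74 ± 0.23 (adjusted p = 0.13) on a probe in the edge zone, with the lower value in the right leg of 9 of 10 animals. It passed in 2 of 20 fits with 1 array left out, those without HV 5 or HS 3. Of 11 other alternatives it passed in 2, among them the mean of all probes of a gene, and the adjusted p ranged up to 0.234.

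Beside Ky and Flnc, the elongation factors and cordon-bleu have been reported to bind Igfn1. Of these 3 genes 0 were called in any comparison, against 0% to 1.28% of all tested genes. The 2 of smallest p for the averaged vector are named. Eef1a2, the elongation factor 1-alpha of mature muscle, differed by -0.25 ± 0.10 (SE, limma adjusted p = 0.319) with the lower value in the right leg of 8 of 9 animals, and Eef1a1 by 0.12 ± 0.09 (adjusted p = 0.709). Of 10 measured genes of the calcineurin pathway that Myoz1 restrains, 0 were called in any comparison, against the same share of all tested genes. Their median for the averaged vector was -0.05. The 2 of smallest p were Ppp3cb, a catalytic subunit of calcineurin, at -0.76 ± 0.34 (adjusted p = 0.375), and Nfatc3, a transcription factor that calcineurin activates, at 0.12 ± 0.08 (adjusted p = 0.610). The Ppp3cb value rests in part on HS 1, which read -2.01 against 1.23 to 1.40 on the other 3 HS arrays kept. Without HS 1 it was -0.35, and the right leg had the lower value in 8 of 9 animals.

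The genes whose pattern over the 20 arrays was most like that of Igfn1 were not among its partners. Likeness was measured as Pearson's r with Igfn1 over the 20 arrays, for 13642 other genes with a value on every array. The 20 points share the group difference, the animal and the slide, so r is a description. Chrna9 passed the filter on dim probes only through HS and HV legs: it was above background on 5 HS, 0 ES, 4 HV and 0 EV arrays, so its r and its leg differences rest on 11 values at background. Gsdma was above background on 3 ES and 3 EV arrays and Tlr5 on 4 and 4, and both on all HS and HV arrays. The highest were Chrna9 (a nicotinic acetylcholine receptor subunit, r = 0.921), 2900056L01Rik (0.911), Gsdma (a gasdermin, 0.909), Tlr5 (the receptor for flagellin, 0.893), Lpin2 (a phosphatidate phosphatase, 0.893), Pla2g5 (a secreted phospholipase A2, 0.890), Gadd45a (a stress-induced gene, 0.884) and Csrp1 (a LIM-domain protein, 0.878). Ky had r = -0.455, Flnc 0.147 and Actn3 0.112, the last at the scanner ceiling, and Actn2 and Myoz1 had arrays left out. Over the 10 leg differences, where each animal gives 1 value, r with Igfn1 was 0.916 for Gadd45a, 0.884 for Csrp1, 0.774 for Gsdma, 0.754 for Chrna9 and for Lpin2, 0.703 for 2900056L01Rik, 0.484 for Tlr5 and 0.320 for Pla2g5.

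The lowest HV array and the highest HS array of Igfn1 held the same place in most of these genes. HV 5, the lowest HV array for Igfn1, was the lowest HV array for 7 of the 8 genes, and HV 3 was the lowest for 2900056L01Rik. HS 4, the highest HS array for Igfn1, was the highest for 6 of the 8, and HS 5 for Gsdma and Tlr5. Chrna9 measured 0.30, -0.94, -0.37, 2.24 and -0.33 in HS legs and -0.13, 0.68, -0.42, 1.69 and -5.38 in HV legs, where HV 5 was not above background, and it was not above background on any ES or EV array. Gadd45a measured 3.10, 2.61, 2.31, 4.71 and 3.43 in HS legs and 2.18, 2.04, 1.84, 2.23 and 1.80 in ES legs. In HV legs Gadd45a measured 2.89, 3.94, 2.33, 3.45 and 1.97, and in EV legs 1.40, 1.79, 1.82, 2.10 and 1.90. These shared places concern right legs only, in genes that were chosen for likeness to Igfn1. ES 4, from the same animal as HS 4, had the lowest Igfn1 level of the ES legs (-2.58). The full order of the right legs was not shared by all of these genes. Gsdma measured -1.44, -1.56 and -1.64 on HS 1, HS 3 and HS 4, against 0.08 on HS 5. The Pla2g5 probe lies in the edge zone.

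**Figure D5:**
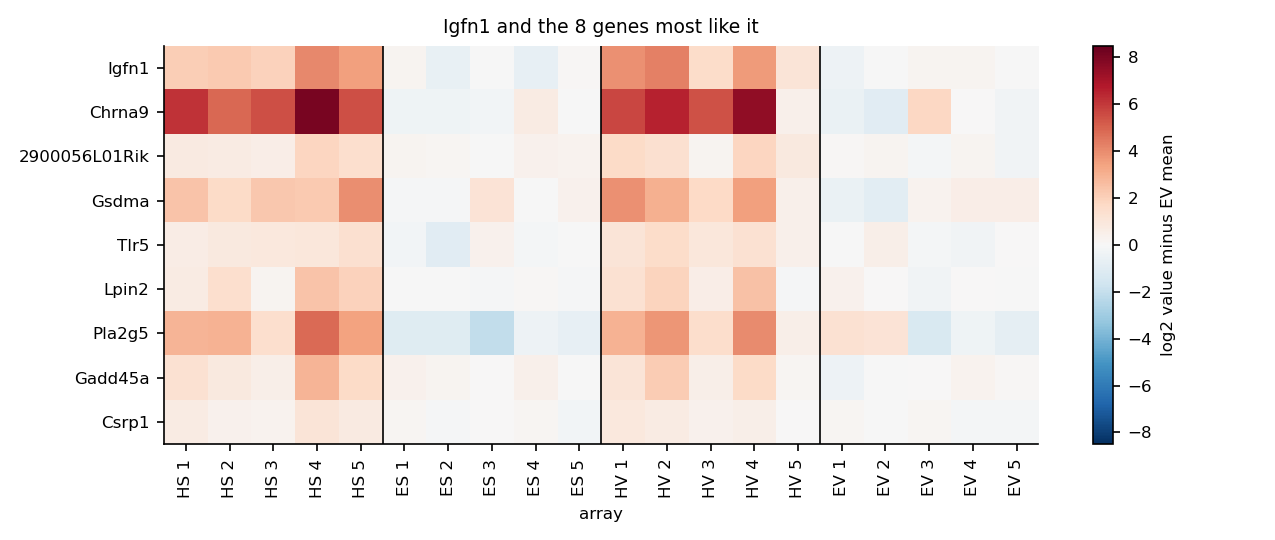
Igfn1 and the 8 genes with the highest Pearson's r to it over the 20 arrays, as log2 value minus the mean of the EV arrays (red higher, blue lower). In HS and HV columns Igfn1, Chrna9, Gsdma and Pla2g5 are the redder rows. 2900056L01Rik, Tlr5, Lpin2, Gadd45a and Csrp1 differ less on average and are mostly pale on the shared colour scale. ES and EV columns are mostly near white. HV 5, with Igfn1 at -0.76, is the palest HV column for Igfn1 and 7 of the 8 genes.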

How the data were processed

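Per the labels' protocols, Cy3-labelled cRNA of EDL muscle was hybridised to one-colour arrays, and per the file headers Feature Extraction 9.5.1.1 (design Agilent-014868, protocol GE1-v5_95_Feb07) made the processed intensity of each spot from the scan, with the background subtracted. The value table the authors deposited holds linear ratios: each processed intensity divided by 1 constant per array, as a comparison of both files shows, with column medians of 0.27 to 0.33. It served as an alternative.

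From the deposited intensities, log2 values were taken minus the 75th percentile of each array. Spots marked as non-uniform or outlying were left out (12539 over the 20 arrays). A probe was kept if well above background on 5 or more arrays, with 3 or more arrays left in each group, and a gene was represented by its brightest probe on average. limma 3.58.1 in R 4.3.3 was fitted to 4 group means over 15725 genes, two-sided, with Benjamini-Hochberg adjustment and a threshold of 0.05. It was tested on simulated data. The number of arrays limits the precision.

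Animal identifiers in the labels pair the legs. Their deviations from the group means correlated at 0.03 to 0.41 in vehicle and 0.20 to 0.36 in Scriptaid animals. The replicate number is the slide, 5 slides of 4 arrays.

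The members and the gene lists were chosen with earlier results of these data known. Named genes were the members, called list members or otherwise the 2 of smallest p for the averaged vector, and the 8 genes most like Igfn1. Alternatives were other scalings, background corrections, filters, spot and probe choices, the deposited table, replicate blocks and leaving out each array. The edge zone (the first 2 and last 10 of 85 columns, 7 rows at each end of 532) was set after seeing where HS arrays read low.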

Additional observations from a re-analysis of the deposited data

Results flagged for a closer look

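In 40 sets of values (a probe of the 6 genes in 1 group), 3 held a value far from the others, where about 1 in 20 is flagged by chance. Flnc probe A_51_P349844 read -6.18 on EV 5, not above background, against -1.62 to -0.53 on the other 4 EV arrays. The Flnc probe A_52_P61735 read 4.24 on EV 4, against 4.78 to 4.93 on the other 4. The second Ky probe, A_51_P334190, read -5.12 on HV 2, against -6.75 to -6.44 on the other 4 HV arrays, all 5 not above background.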

How the results depend on the processing

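In each of the 6 comparisons 0 of the tested members were called, with all spots and under every alternative run. Over the 938 values of the 5 partners, the smallest adjusted p was 0.107, for Ky in ES minus EV after normexp correction (-0.75). Igfn1's averaged vector difference of 2.94 was 2.03 with normexp and 3.16 without arrays EV 5 and HV 5, an alternative chosen after seeing the data. Its HV minus EV difference was 1.78 with normexp, and 2.54 to 3.34 when 1 array was left out. Under the replicate block by animal, the paired legs gave averaged differences of 2.94 for Igfn1 and -0.27 for Ky, and the block changed no call of a member. Counts of genes called moved more: for HS minus ES 195 with all spots, 0 without edge spots, 91 in the deposited table, 322 with no filter on dim probes, 359 with the slide block and 112 to 380 with 1 array left out. For the averaged vector they were 172, 32 without edge spots, 72 with no filter, 105 in the deposited table, 283 with the animal block, 405 with the slide block and 78 to 330. For HS minus HV they were 202, 1 without edge spots, 109 in the deposited table, 376 with the slide block and 133 to 476. For the interaction they were 28, 0 without edge spots, 4 in the deposited table, 83 with normexp and 21 to 57. The causes of these shifts were not tested. Scanner saturation of Actn3 and Myoz1, Actn2 spots near the ceiling and the single Igfn1 probe limit what the arrays show.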
